A study of Homo sapiens with 8 samples.

Results

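The genes described here are *NFE2L2*, which encodes the transcription factor NRF2, *KEAP1*, which encodes its inhibitor, and the NRF2 target genes *NQO1*, *HMOX1*, *GCLC*, *GCLM*, *TXNRD1*, *SRXN1* and *FTH1*. These 9 genes were picked by name out of 13307 genes with normalized counts, and all 9 were present. The libraries come from Panc-1, an established cell line from a carcinoma of the pancreatic duct, and the study asked how depletion of PHF13, a reader of the histone mark H3K4me3, acts on genes controlled by the cytokine TGFβ. Cells of every group were transfected with siRNA by means of RNAiMAX, a lipid reagent. The groups were siControl (control siRNA, no TGFβ), siPHF13 (siRNA against *PHF13*, no TGFβ), siControl + TGFβ and siPHF13 + TGFβ, where the TGFβ groups received 10 ng/ml TGFβ for 48 h. Each group had 2 libraries of polyadenylated RNA. No library of untransfected cells was analysed here, a single cell line was used, and the sources used here do not give which siRNA against *PHF13* went into a library. Nothing in the labels says that the libraries of a group came from separate cultures, so the p-values measure the spread between these libraries, which may be technical.

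NRF2 is held at a low level in unstressed cells, because KEAP1 binds it and hands it to a CUL3 ubiquitin ligase for degradation. Oxidants and electrophiles modify cysteines of KEAP1, NRF2 then accumulates, pairs with small MAF proteins and binds antioxidant response elements next to genes that supply glutathione, thioredoxin activity, NADPH and iron storage. The pathway is known for its activity in pancreatic tumours, where it sustains the antioxidant capacity of the cells. Much of its control acts on the NRF2 protein, which mRNA libraries do not measure.

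The antioxidant response element is the sequence through which NRF2 reaches its targets, so its core, TGACNNNGC, was looked for on both strands in the 250 bases before the starts of the genes. The starts were those of RefSeq on GRCh38.p14, where 7 of the 9 genes had an entry. The core was found for 3 of these 7 genes, *KEAP1*, *GCLM* and *TXNRD1*. Among all genes with an entry 13.2% held it, and over all windows 10.9%. Sequence farther from the starts was not searched, so a gene without a match may hold the core elsewhere. The 2 matches of *KEAP1* and a match before another start of *TXNRD1* lie in stretches that overlap annotated transcripts. The AP-1 site TGACTCA, whose letters are close to the core, was not in the windows with a match. The stretches of 120 bases before the starts of *GCLM* and *TXNRD1* are shown because they place the core next to a gene of glutathione synthesis and a gene of the thioredoxin system. Capitals mark the core, which is on the opposite strand in *GCLM*, 34 to 26 bases before the start, and on the strand of the gene in *TXNRD1*, 99 to 91 bases before it. A match describes letters and was not tested for binding.
GCLM (chr1:93909431-93909550, minus strand): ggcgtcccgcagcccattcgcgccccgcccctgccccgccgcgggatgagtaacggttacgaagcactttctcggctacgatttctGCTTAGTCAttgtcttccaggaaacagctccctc
TXNRD1 (chr12:104215659-104215778, plus strand): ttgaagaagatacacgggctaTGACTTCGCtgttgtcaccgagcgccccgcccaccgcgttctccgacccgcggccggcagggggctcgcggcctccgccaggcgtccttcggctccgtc

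The siRNA against *PHF13* left about 31% of its transcript, with and without TGFβ. *PHF13* (GRCh37 chromosome 1, 6673791 to 6684090, plus strand) was measured at 1804 and 1662 normalized counts in siControl, 524 and 558 in siPHF13, 1586 and 1709 in siControl + TGFβ, and 513 and 529 in siPHF13 + TGFβ. The libraries of both depleted groups lie below all others, and the means amount to 31.2% and 31.6% of the controls. The libraries held from 39196214 to 46700806 reads on the 13307 genes. Of the 8 markers listed for ductal epithelium all 8 were in the table. Of the leukocyte markers, *PTPRC*, *CD3E* and *LYZ* were not in it. The sum of *CD14*, *CD68* and *ITGAM* was 7487 to 7567 normalized counts in siControl, 12003 to 13149 in siPHF13, 6262 to 7845 in siControl + TGFβ and 10652 to 13488 in siPHF13 + TGFβ. Nearly all of it was *CD68*, which was called higher after depletion (log2 fold change 0.77 without TGFβ and 0.79 with it), whereas *ITGAM* was called lower (-1.39 and -0.77) and *CD14* was not called. The part of these genes in the results was not tested. In these bulk libraries fewer cells of a kind and less RNA per cell cannot be told apart.

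The pair of siPHF13 libraries differed in most of these genes. Values with each of them left out are therefore given beside those of the 9 genes for depletion without TGFβ. A group reduced to 1 library is assumed to vary like the others, so calls from such fits do not measure its own spread. On the scale of log2(normalized count + 1), replicate 1 lay above replicate 2 in 8 of the 9 genes, with a median difference of 0.70, while the median over all genes was 0.00 and the median absolute difference 0.10. The differences were 1.30 in *SRXN1*, 0.80 in *TXNRD1*, 0.73 in *HMOX1*, 0.71 in *GCLM*, 0.70 in *NQO1* and 0.62 in *GCLC*, and the first 3 of these exceed the 95th percentile of all genes, 0.73. *FTH1* and *KEAP1* differed by 0.28 and 0.26 and *NFE2L2* by -0.05. In the other groups the median difference of the 9 genes was 0.01, -0.02 and 0.04, and no gene of the 9 exceeded the 95th percentile. *PHF13* mRNA itself was at 524 and 558 normalized counts in the siPHF13 libraries, and these libraries do not measure its protein. The cause of the difference between the libraries was not tested.

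**Figure D1:**
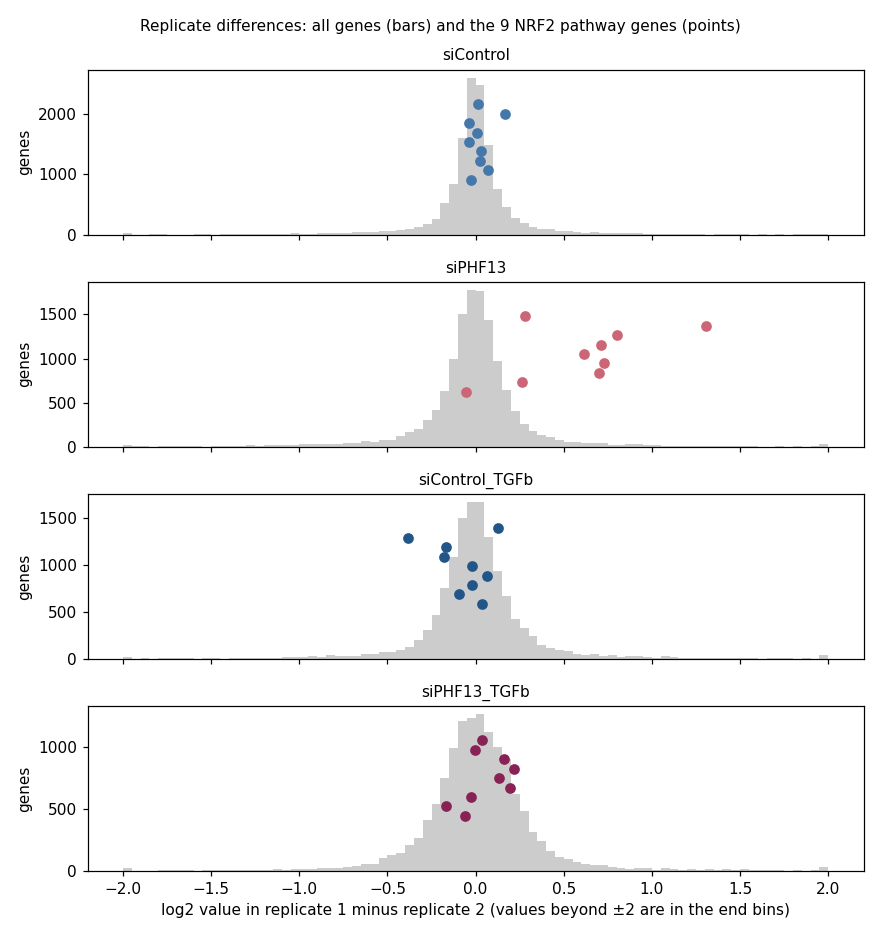
For each group, grey bars count all 13307 genes by the log2 value of replicate 1 minus that of replicate 2, and points show the 9 NRF2 pathway genes (their height carries no value). In siPHF13 6 of the points sit between 0.62 and 1.30, whereas in the other groups they lie between -0.39 and 0.22.

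Depletion of PHF13 without TGFβ went with less mRNA of most of these genes. Of the 9 genes 2 were called lower, *GCLM* and *SRXN1*, and 0 higher. A call needs, in limma, an adjusted p below 0.05 together with a log2 fold change beyond ±0.58. Among all genes 18.4% were called in this comparison, 10.4% as lower and 7.95% as higher. By the adjusted p alone 7 of the 9 genes passed, 6 lower and 1 higher, against 47.4% of all genes. The median log2 fold change was -0.43 over the 9 genes and 0.00 over all genes. Of the 9 genes 1 lay higher and 6 lower with no overlap between the groups, against 5121 and 5166 of all genes. Most genes were separated in this way, so a lack of overlap within a comparison marks little in a single gene. Without siPHF13 replicate 1 there were 7 genes called lower, and without replicate 2 *SRXN1* was called lower and *KEAP1* higher.

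Depletion in TGFβ-treated cells, which shares no library with the first comparison, lowered 4 of the 9 genes, *FTH1*, *GCLM*, *GCLC* and *SRXN1*. The standard errors and p-values of both comparisons come from the same fit of all 8 libraries. They therefore include the spread between the siPHF13 libraries. Of the 9 genes 0 were called higher. In this comparison 20.5% of all genes were called, 11.7% as lower and 8.81% as higher. By the adjusted p alone 8 of the 9 genes passed, 7 lower and 1 higher, against 50.4% of all genes. The median log2 fold change was -0.56 over the 9 genes. With no overlap between the groups 1 of the 9 genes lay higher and 8 lower, against 4736 and 4801 of all genes. Separated groups were thus the usual outcome here as well. On recovered whole reads, edgeR and DESeq2 each called 4 of the 9 genes as well.

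**Figure D2:**
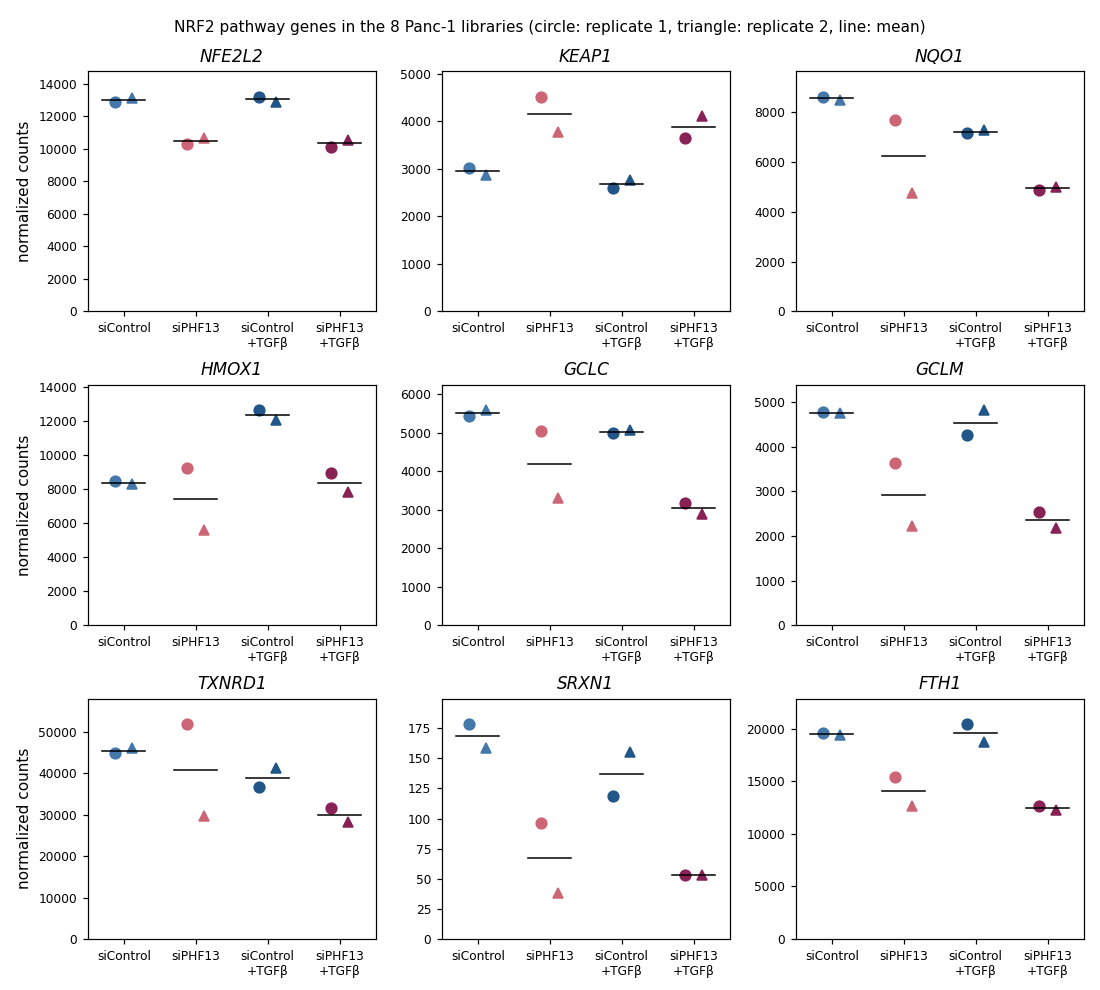
Normalized counts (vertical axes, each starting at 0) of the 9 genes in the 8 libraries, with a circle for replicate 1, a triangle for replicate 2 and a line at the mean of each group. All genes except *KEAP1* are lowest in a depleted library, and the siPHF13 circle stands above its triangle in *NQO1*, *HMOX1*, *GCLC*, *GCLM*, *TXNRD1* and *SRXN1*.

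The regulators differed in opposite directions after depletion, both by less than the fold threshold. *NFE2L2* (GRCh37 chromosome 2, 178083395 to 178257484, minus strand) was measured at 12873 and 13096 normalized counts in siControl, 10265 and 10657 in siPHF13, 13208 and 12897 in siControl + TGFβ, and 10109 and 10557 in siPHF13 + TGFβ. The 4 depleted libraries lie below the 4 others. The means were 80.6% and 79.2% of the controls, and the log2 fold changes of -0.31 ± 0.06 (SE, limma, adjusted p = 0.000499) and -0.34 ± 0.06 (limma, adjusted p = 0.000239) were not called. Without siPHF13 replicate 1 or 2 the first was -0.28 or -0.34. Its exons share 3509 bases with those of *HNRNPA3* on the opposite strand, and 2037 bases with a non-coding gene on the same strand. The strand setting of the counting is not given in the sources used here, so the counting of reads in these bases is uncertain.

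*KEAP1* (GRCh37 chromosome 19, 10596801 to 10614234, minus strand) was the one gene of the 9 with more mRNA after depletion. Its normalized counts were 3019.9 and 2877 in siControl, 4517 and 3769 in siPHF13, 2585 and 2764 in siControl + TGFβ, and 3649.9 and 4098 in siPHF13 + TGFβ. Every depleted library lies above every control library, with means at 141% and 145% of the controls. The log2 fold changes of 0.49 ± 0.09 (SE, limma, adjusted p = 0.000508) and 0.53 ± 0.09 (limma, adjusted p = 0.000213) stayed under the threshold. Without siPHF13 replicate 1 the first was 0.35 and without replicate 2 it was 0.62, the latter called. Without siPHF13 + TGFβ replicate 1 or siControl + TGFβ replicate 2 the second was 0.62 or 0.58, both called.

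Glutathione synthesis starts with glutamate-cysteine ligase, made of a catalytic subunit encoded by *GCLC* and a modifier subunit encoded by *GCLM*. Both had less mRNA after depletion, and *GCLM* was called in both comparisons. *GCLM* (GRCh37 chromosome 1, 94350755 to 94375012, minus strand), shown above with the core before its start, was measured at 4768 and 4740.2 normalized counts in siControl, 3622 and 2211 in siPHF13, 4249.8 and 4809 in siControl + TGFβ, and 2542 and 2183 in siPHF13 + TGFβ. No depleted library reaches a control library, and the order of the means was siControl, siControl + TGFβ, siPHF13, siPHF13 + TGFβ, where the neighbours that differ in TGFβ alone overlap. Depletion left 61.3% of its mRNA, with a log2 fold change of -0.75 ± 0.16 (SE, limma, adjusted p = 0.00159), and 52.2% in TGFβ-treated cells, with a log2 fold change of -0.94 ± 0.16 (limma, adjusted p = 0.00025). Leaving out siPHF13 replicate 1 gave -1.10, and leaving out replicate 2 gave -0.39, which was not called.

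*GCLC* (GRCh37 chromosome 6, 53362139 to 53481768, minus strand) was measured at 5424 and 5575 normalized counts in siControl, 5048 and 3294 in siPHF13, 4982 and 5055 in siControl + TGFβ, and 3168 and 2892 in siPHF13 + TGFβ. The siPHF13 replicate 1 library lies close to the controls, and the other 3 depleted libraries lie well below. In TGFβ-treated cells 60.4% of its mRNA was left (log2 fold change -0.73 ± 0.13, SE, limma, adjusted p = 0.000501, called). Without TGFβ it was 75.8% (log2 fold change -0.43 ± 0.13, limma, adjusted p = 0.0172, not called), with -0.74 when siPHF13 replicate 1 was left out and -0.12 when replicate 2 was.

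The thioredoxin system keeps protein thiols reduced, and sulfiredoxin repairs overoxidized peroxiredoxins. *SRXN1* encodes sulfiredoxin (GRCh37 chromosome 20, 627259 to 633844, minus strand) and had the largest log2 fold changes of the 9 genes in both depletion comparisons. It was measured at 178 and 159 normalized counts in siControl, 96.5 and 38.5 in siPHF13, 119 and 155 in siControl + TGFβ, and 52.9 and 52.9 in siPHF13 + TGFβ. All depleted libraries lie below all control libraries, although the counts are low and the siPHF13 libraries differ 2.51-fold. The log2 fold change was -1.45 ± 0.34 without TGFβ (SE, limma, adjusted p = 0.00325) and -1.34 ± 0.34 with it (limma, adjusted p = 0.00484), where the means of the normalized counts were 40.1% and 38.6% of the controls. Without siPHF13 replicate 1 or 2 the first was -2.10 or -0.80, both called, and without siControl + TGFβ replicate 2 the second was -1.15, which was not called. Its exons share 2292 bases with a readthrough gene on the same strand, which is not in the table.

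*TXNRD1*, the cytosolic thioredoxin reductase (GRCh37 chromosome 12, 104609557 to 104744085, plus strand), was measured at 44921 and 46047 normalized counts in siControl, 51868 and 29726 in siPHF13, 36707 and 41229 in siControl + TGFβ, and 31596 and 28264 in siPHF13 + TGFβ. The siPHF13 libraries lie on either side of the siControl libraries, so the groups overlap without TGFβ and separate with it. The log2 fold changes were -0.21 ± 0.17 (SE, limma, adjusted p = 0.328) and -0.38 ± 0.17 (limma, adjusted p = 0.0768). In the second comparison edgeR and DESeq2 on whole reads gave -0.37 and -0.38 with adjusted p = 0.00102 and 1.9e-05. Leaving out siPHF13 replicate 1 gave -0.61 in the first comparison, which was called, and leaving out replicate 2 turned the direction, to 0.19.

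*NQO1* encodes a quinone reductase (GRCh37 chromosome 16, 69740899 to 69760571, minus strand) and is widely used as a readout of NRF2 activity. Its normalized counts were 8625 and 8478 in siControl, 7702 and 4739 in siPHF13, 7155 and 7264 in siControl + TGFβ, and 4890.3 and 4979 in siPHF13 + TGFβ. The depleted libraries lie below the control libraries in each comparison. The log2 fold changes of -0.50 ± 0.15 (SE, limma, adjusted p = 0.0118) and -0.55 ± 0.15 (limma, adjusted p = 0.0065) were not called. Without siPHF13 replicate 1 the first was -0.85 and called, and without replicate 2 it was -0.15.

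Iron and heme are handled by *FTH1*, the ferritin heavy chain that oxidizes and stores iron, and *HMOX1*, the heme oxygenase that releases iron from heme. *FTH1* (GRCh37 chromosome 11, 61727190 to 61735106, minus strand) was measured at 19556 and 19409 normalized counts in siControl, 15387 and 12683 in siPHF13, 20404 and 18710 in siControl + TGFβ, and 12614 and 12299.7 in siPHF13 + TGFβ. The 4 depleted libraries lie below the 4 control libraries. In TGFβ-treated cells 63.7% was left (log2 fold change -0.65 ± 0.08, SE, limma, adjusted p = 1.58e-05, called). Without TGFβ it was 72.0% (log2 fold change -0.48 ± 0.08, limma, adjusted p = 0.000241, not called), with -0.62, called, when siPHF13 replicate 1 was left out and -0.34 when replicate 2 was. The gene is uncertain as counted, because the annotation holds 25 of its pseudogenes, of which the table lists 0, and its exons share 1267 bases with *BEST1* on the opposite strand.

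*HMOX1* (GRCh37 chromosome 22, 35776354 to 35790207, plus strand) was the one gene of the 9 that passed limma's adjusted p after TGFβ in siControl cells. It was measured at 8466 and 8280.3 normalized counts in siControl, 9228 and 5562 in siPHF13, 12608 and 12049.6 in siControl + TGFβ, and 8921 and 7794 in siPHF13 + TGFβ. The siControl + TGFβ libraries are the highest, and the other 3 groups overlap. Depletion gave log2 fold changes of -0.22 ± 0.16 without TGFβ (SE, limma, adjusted p = 0.255) and -0.56 ± 0.16 with it (limma, adjusted p = 0.00806), neither called. Without siPHF13 replicate 1 the first was -0.59 and called, and without replicate 2 it turned to 0.14. The second was called without siPHF13 + TGFβ replicate 1 (-0.66) or siControl + TGFβ replicate 2 (-0.60).

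**Figure D3:**
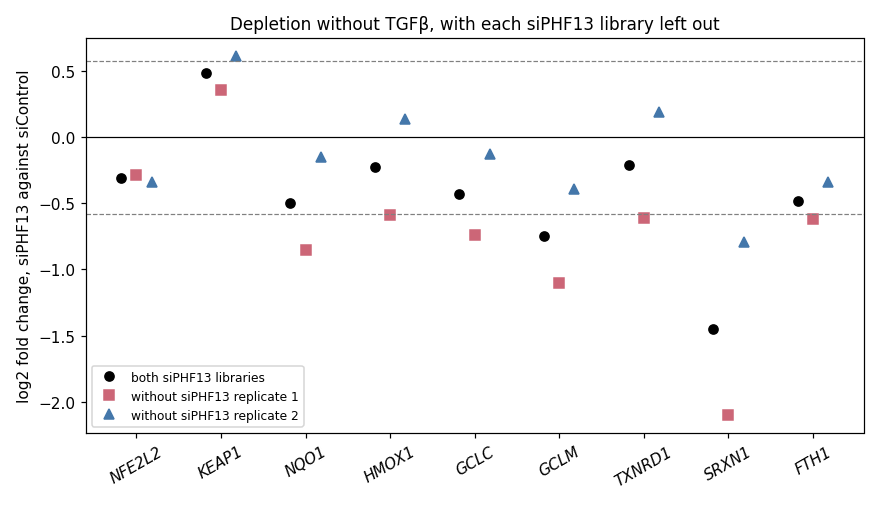
Log2 fold change of siPHF13 against siControl (vertical axis) for each of the 9 genes, with both siPHF13 libraries (circles), without replicate 1 (squares) and without replicate 2 (triangles), and dashed lines at ±0.58. The squares and triangles lie far apart in *NQO1*, *HMOX1*, *GCLC*, *GCLM*, *TXNRD1* and *SRXN1*, and the triangles of *HMOX1* (0.14) and *TXNRD1* (0.19) lie above 0.

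TGFβ alone gave no call among these genes. In siControl cells limma called 0 of the 9 genes, against 4.79% of all genes, and edgeR and DESeq2 on whole reads called 0 as well. By limma's adjusted p alone 1 gene passed, *HMOX1*, against 15.9% of all genes, and at an unadjusted p under 0.05 it was also 1 gene. On whole reads *NQO1* passed too, in edgeR (-0.25, adjusted p = 0.0149) and DESeq2 (-0.25, adjusted p = 0.0055), and *TXNRD1* in DESeq2 (-0.22, adjusted p = 0.0402). *HMOX1* was at 147% of siControl, with a log2 fold change of 0.56 ± 0.16 (SE, limma, adjusted p = 0.0256), just under the fold threshold. The other genes had log2 fold changes between -0.31 in *SRXN1* and 0.01 in *NFE2L2*, and their 95% intervals include 0. The *HMOX1* fold change does not rest on a depleted library, although its standard error and p-value use the spread within all groups. This fold change lay between 0.53 and 0.59 with each library left out in turn. This comparison and the first depletion comparison share the siControl libraries.

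In siPHF13 cells limma also called 0 of the 9 genes after TGFβ, against 1.35% of all genes, and at an unadjusted p under 0.05 passed 2, *GCLC* and *TXNRD1*. Their log2 fold changes were -0.43 ± 0.13 (SE, limma, adjusted p = 0.128) and -0.39 ± 0.17 (limma, adjusted p = 0.305), and that of *HMOX1* was 0.22 ± 0.16 (limma, adjusted p = 0.614). These values depend on which siPHF13 library is used. Without replicate 2, 4 genes were called lower, *TXNRD1* (-0.80), *GCLC* (-0.74), *NQO1* (-0.64) and *GCLM* (-0.62). Without replicate 1, 1 gene was called, *HMOX1*, and it was higher (0.58). Count models were not run on this comparison.

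The difference between both TGFβ responses was tested as an interaction, the response in siPHF13 cells minus that in siControl cells. Limma called 0 of the 9 genes, against 0.308% of all genes, and 0 had an unadjusted p under 0.05. The largest difference was that of *HMOX1*, -0.34 on the log2 scale with a 95% interval from -0.81 to 0.13 (limma, adjusted p = 0.703). Among the 9 genes the interval was narrowest for *NFE2L2*, from -0.20 to 0.15, and widest for *SRXN1*, from -0.93 to 1.14. Without siPHF13 replicate 2 the difference of *HMOX1* was -0.70 and was called, and without replicate 1 it was 0.03. The effect of depletion was therefore not shown to differ between cells with and without TGFβ for any of the 9 genes when all libraries were used.

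**Figure D4:**
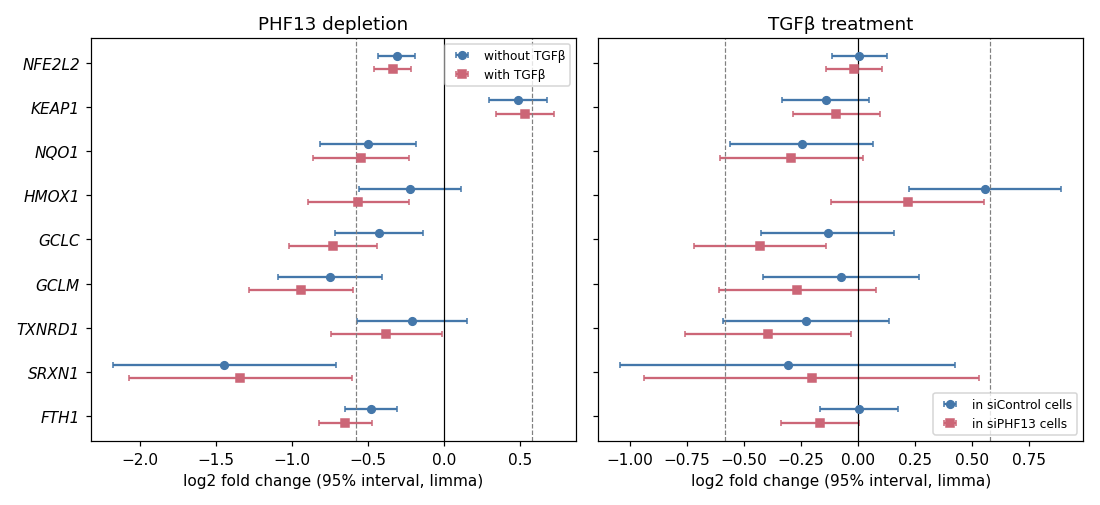
Log2 fold changes with 95% intervals from limma (horizontal axes) for the 9 genes, on the left for depletion without and with TGFβ, on the right for TGFβ in siControl and siPHF13 cells, with dashed lines at ±0.58. On the left *KEAP1* lies right of 0 and the other genes left of it, and on the right *HMOX1* in siControl cells (0.56) is the point farthest to the right.

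For the genes called in a comparison, the genes with the most similar course over the 8 libraries were found by the root mean square difference of centred log2 values. Nearest to *GCLC* were *NQO1* (0.08) and *EXOG* (0.11), and nearest to *GCLM* were *ARHGEF35* (0.08) and *TRIM16L* (0.08). Nearest to *FTH1* were *GCNT2* (0.06) and *GSPT2* (0.06), and nearest to *SRXN1* were *ARAP2* (0.19) and *FZD1* (0.19). The 9 genes' own variation on this scale was 0.37 in *GCLC*, 0.47 in *GCLM*, 0.30 in *FTH1* and 0.79 in *SRXN1*. *NQO1* was the only one of these neighbours that belongs to the 9 genes.

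The wider pathway was followed with lists of other genes. The list of NRF2 control holds ubiquitin ligase components, small MAF proteins, BACH repressors and other partners of KEAP1 or NRF2. Its median log2 fold changes after depletion without and with TGFβ were 0.01 and -0.01, where the medians of all genes were 0.00 and 0.00. Of its 16 genes 1 was called lower in both comparisons, where 10.4% and 11.7% of all genes were called lower. That gene was *SQSTM1*, which encodes p62, a receptor of selective autophagy that binds KEAP1. It was measured at 63458 and 63762 normalized counts in siControl, 35498 and 28446 in siPHF13, 55192 and 57235 in siControl + TGFβ, and 28092 and 26729 in siPHF13 + TGFβ. The depleted libraries lie well below the others, and the log2 fold changes were -1.001 ± 0.084 (SE, limma, adjusted p = 5.84e-07) and -1.036 ± 0.084 (limma, adjusted p = 3.7e-07). The repressor *BACH2* was called higher after depletion with TGFβ (0.75) and lower after TGFβ in siControl cells (-0.998), at means of 81.0 normalized counts in siControl and 41.3 in siControl + TGFβ, and it is named after its values had been seen.

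Of 38 listed genes of glutathione and thioredoxin metabolism 36 were in the table. After depletion 3 were called higher and 3 lower, without and with TGFβ, and the medians were -0.07 and -0.02. All genes were called at 18.4% and 20.5%, so this list was near the background. *SLC7A11*, the cystine importer that feeds glutathione synthesis, was measured at 4789.8 and 4548 normalized counts in siControl, 2003 and 1223 in siPHF13, 5334 and 5513 in siControl + TGFβ, and 1501 and 1362 in siPHF13 + TGFβ. All depleted libraries lie far below all controls. Its log2 fold changes were -1.58 ± 0.15 (SE, limma, adjusted p = 2.27e-06) and -1.92 ± 0.15 (limma, adjusted p = 3.27e-07). *PRDX2*, a cytosolic peroxiredoxin, was called lower in both comparisons (-0.94 and -0.81), and *PRDX4*, the peroxiredoxin of the endoplasmic reticulum, higher (1.29 and 1.33).

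*TXNIP*, which binds and inhibits thioredoxin, had the largest rise of these lists. It was measured at 219 and 235 normalized counts in siControl, 673 and 820 in siPHF13, 134 and 124 in siControl + TGFβ, and 642 and 686 in siPHF13 + TGFβ. The groups do not overlap in either depletion comparison, with log2 fold changes of 1.71 ± 0.14 (SE, limma, adjusted p = 4.41e-07) and 2.35 ± 0.14 (limma, adjusted p = 2.09e-08). TGFβ lowered it in siControl cells (-0.81), while in siPHF13 cells the value was -0.16, not called. The interaction called 0 genes of the glutathione and thioredoxin list, against 0.308% of all genes. By the adjusted p alone it was also 0, so both responses were not shown to differ. The other genes of this list called after depletion, named after their values had been seen, were *GGT1* (0.91) and *GSTM4* (-0.61) without TGFβ and *GLRX5* (0.85) and *SESN3* (-1.40) with it.

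Of 30 listed genes of NADPH supply and detoxification 24 were in the table, and after depletion 8 were called lower and 1 higher without TGFβ, and 7 lower and 1 higher with it, with medians of -0.32 and -0.33. Among all genes 10.4% and 11.7% were called lower, 7.95% and 8.81% higher, and the medians were 0.00. *PIR*, the iron-binding nuclear protein pirin, had the largest decrease (-1.54 ± 0.22 and -1.86 ± 0.22, SE, limma, adjusted p = 7.54e-05 and 1.21e-05). *PGD* of the pentose phosphate pathway (-1.08 and -1.18), malic enzyme *ME1* (-0.67 and -1.02), and *UGDH*, which makes UDP-glucuronic acid (-0.87 and -0.76), were called lower in both comparisons. The first call of *ME1* was lost without siControl replicate 2 (-0.55) or siPHF13 replicate 2 (-0.57). The transporter *ABCC2* was called lower in both as well (-0.67 and -0.95), and after TGFβ in siPHF13 cells (-0.73), where a fit of only those libraries or one without siPHF13 replicate 1 did not call it. In siControl cells TGFβ gave -0.45 for *ABCC2* (limma, adjusted p = 0.0453, not called). The interaction called 0 genes of this list, against 0.308% of all genes, so the responses of *ABCC2* were not shown to differ. *ABCC3*, a related transporter named after its value had been seen, was the gene called higher after depletion (0.87 and 0.72). In this list 3 genes differed between the siPHF13 libraries by more than the 95th percentile of all genes, *PIR* (0.98), *OSGIN1* (0.88) and *TRIM16L* (0.82), each higher in replicate 1, and *OSGIN1* and *TRIM16L* are named for this after their values had been seen.

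All 19 listed genes of heme and iron were in the table, and after depletion 1 was called higher and 2 lower without TGFβ, and 1 higher and 3 lower with it, with medians of -0.04 and -0.16, which is near the background of 18.4% and 20.5% of all genes called. *FTL*, the ferritin light chain, was called higher, opposite to the heavy chain *FTH1*. It was measured at 70573 and 69662 normalized counts in siControl, 122240 and 107844 in siPHF13, 78858 and 72512 in siControl + TGFβ, and 117006 and 111812 in siPHF13 + TGFβ. The groups do not overlap, and the log2 fold changes were 0.71 ± 0.07 (SE, limma, adjusted p = 3.5e-06) and 0.60 ± 0.07 (limma, adjusted p = 1.51e-05). Without siControl + TGFβ replicate 2 or siPHF13 + TGFβ replicate 1 the second was 0.54 or 0.56 and was not called. *ACO1*, the iron-responsive aconitase, was called lower in both comparisons (-0.60 and -0.67), *NCOA4*, the receptor for ferritin in autophagy, with TGFβ (-0.73, against -0.57 without), and the importer *SLC39A14* likewise (-0.59, against -0.52). The first call of *ACO1* was lost without siControl replicate 2 (-0.57) or siPHF13 replicate 2 (-0.58), and that of *SLC39A14* without siControl + TGFβ replicate 2 (-0.54) or siPHF13 + TGFβ replicate 1 (-0.56). The iron exporter *SLC40A1* was the other gene called lower without TGFβ (-2.63), at means of 27.1 normalized counts in siControl and 3.46 in siPHF13, and it is named after its values had been seen.

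Of the list of superoxide, peroxide and NADPH oxidase genes 8 of 14 were in the table, and the only call was a lower *SOD2*, the mitochondrial superoxide dismutase, without TGFβ (-0.62, against -0.51 with TGFβ, not called). That call was lost without siPHF13 replicate 1 (-0.49) or siControl replicate 2 (-0.54). Among all genes 18.4% were called after depletion without TGFβ and 20.5% with it.

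The calls of the main list genes for depletion without TGFβ were also computed with each siPHF13 library left out. Without replicate 1 and without replicate 2 the log2 fold changes were -1.16 and -0.84 in *SQSTM1*, -1.93 and -1.22 in *SLC7A11*, and -2.03 and -1.05 in *PIR*. They were 1.85 and 1.56 in *TXNIP*, 1.10 and 1.47 in *PRDX4*, -0.86 and -1.01 in *PRDX2*, -1.07 and -1.09 in *PGD*, -0.84 and -0.90 in *UGDH*, and 0.62 and 0.80 in *FTL*. Each of these list genes was called either way. *NCOA4* was called without replicate 1 (-0.62) and not without replicate 2 (-0.51).

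**Figure D5:**
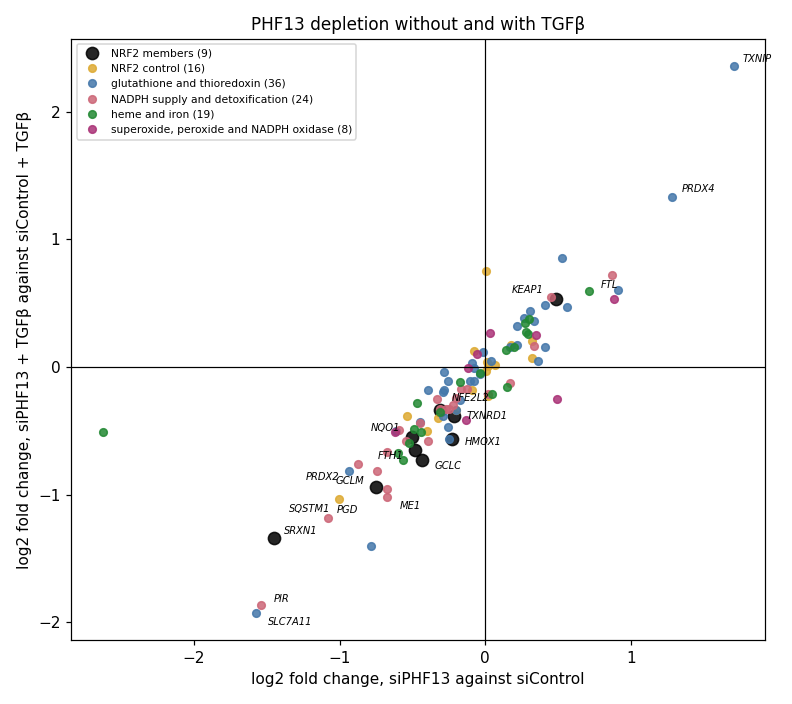
Log2 fold change after PHF13 depletion without TGFβ (horizontal axis) and with TGFβ (vertical axis) for the 9 genes (black) and the genes of the other lists (colours, number of genes in brackets). *SRXN1*, *SLC7A11* and *PIR* lie at the lower left and *TXNIP* and *PRDX4* at the upper right, and *KEAP1* is the only black point right of 0.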

How the data were processed

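Polyadenylated RNA of 8 Panc-1 libraries in 4 conditions, 2 libraries each, was analysed. Per the labels and the methods, the authors trimmed reads with Trim Galore 0.4.1, aligned them to hg19 with STAR 2.7.0, counted them per gene with HTSeq 0.12.4 and normalized them with DESeq2, while deepTools 3.5.0 is also listed. The values are a signal, gene counts divided by the DESeq2 size factor of each library, as deposited by the authors, for 13307 genes. Annotation release and strand setting are not given in the sources used here. The 3 deposited comparison tables (fold changes, p-values) were not used.

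One limma fit (limma 3.58.1, R 4.3.3) with a trended prior variance on log2(normalized count + 1) covered all 8 libraries with 4 group means. P-values were adjusted by Benjamini-Hochberg over 13307 genes, and genes were called at an adjusted p below 0.05 and a log2 fold change beyond ±0.58, thresholds taken from the methods of the study. A fold change on this scale understates that of low genes. Requiring 10 normalized counts in 2 libraries removed 0 genes, and the lowest mean of a gene was 9.82. Dividing by the smallest step gave whole reads (100% of values within 0.001 reads). In siPHF13 replicate 1 the step was 0.995, and its values came out whole as well. By choice, a step this near 1 was not accepted, and the siPHF13 group was left out of count models. The tools edgeR 4.0.16 (quasi-likelihood test) and DESeq2 1.42.0 were run on the other groups. There edgeR called 2725 genes for depletion with TGFβ and 630 for TGFβ in siControl. Coordinates of genes are from GENCODE on GRCh37 and promoter windows from RefSeq on GRCh38.p14. Replicate numbers do not pair the libraries. The fit was tested on simulated data that gave all genes and groups the same spread beyond that of counting. That test does not cover the difference between the siPHF13 libraries.

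The 9 genes and the other lists were chosen with earlier results of these data known. Besides the 9 genes and *PHF13*, the text names, per list, up to 4 genes called after depletion and up to 2 called after TGFβ, ranked by their mean log2 fold change, at a mean of at least 100 normalized counts, and the 2 nearest profiles of each called gene among the 9. Genes named outside this rule are marked in the text as named after their values had been seen. Other settings tried were no minimum, a minimum mean of 100, a pseudocount of 5, TMM rescaling, the libraries compared alone, a replicate block, count models, no fold threshold and each library left out. One listed marker is not reported here.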

Additional observations from a re-analysis of the deposited data

How the results depend on the processing

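Without the fold threshold 7, 8 and 1 of the 9 genes passed (depletion without TGFβ, depletion with TGFβ, TGFβ in siControl), and 6308, 6712 and 2114 of all genes, with 409 for TGFβ in siPHF13. A replicate block called 2, 4, 0, 0 and 0 of the 9 genes and 2438, 2711, 630, 171 and 39 of all genes in the 5 comparisons. The numbers do not pair the libraries, since same-numbered deviations correlate at -0.09 to 0.05. Under the settings other than leaving out single libraries, 332 of 342 values of the 9 genes kept direction and call. Another 10 passed only through the missing fold threshold, and 0 turned. The fits of the libraries compared alone and the count models, both among these settings, used fewer libraries. TMM rescaling moved the median of all genes by at most 0.0046. Count models were not run where siPHF13 enters, and the interaction has no fit on fewer groups.

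With each library left out in turn, 2 to 7 of the 9 genes were called after depletion, 0 to 4 after TGFβ in siPHF13 and 0 to 1 in the interaction, where 12 to 111 of all genes were called, 12 without siControl replicate 2 and 111 without siPHF13 + TGFβ replicate 1. Of 360 such values 27 turned direction. After depletion *HMOX1* ranged from -0.59 to 0.14 and *TXNRD1* from -0.61 to 0.19. After TGFβ in siControl *NFE2L2* ranged from -0.0097 to 0.025, *GCLM* from -0.16 to 0.016 and *FTH1* from -0.058 to 0.067. After TGFβ in siPHF13 the ranges were -0.049 to 0.013 in *NFE2L2*, -0.22 to 0.037 in *KEAP1*, -0.64 to 0.058 in *NQO1*, -0.15 to 0.58 in *HMOX1*, -0.62 to 0.092 in *GCLM*, -0.80 to 0.0076 in *TXNRD1* and -0.85 to 0.45 in *SRXN1*. In the interaction they were -0.057 to 0.0059 in *NFE2L2*, -0.083 to 0.18 in *KEAP1*, -0.40 to 0.30 in *NQO1*, -0.70 to 0.026 in *HMOX1*, -0.61 to 0.010 in *GCLC*, -0.55 to 0.16 in *GCLM*, -0.57 to 0.23 in *TXNRD1* and -0.55 to 0.76 in *SRXN1*. A group reduced to 1 library is assumed to vary like the others. The cause of these shifts was not tested. With 2 libraries a group, small differences of low genes such as *SRXN1* are poorly resolved.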
